A study of Danio rerio with 6 samples.

Results

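The genes described here serve glucose uptake, glycolysis and lactate release in zebrafish scale osteoblasts. They were those whose zebrafish symbol begins with the name of a glycolytic enzyme, of its regulators Pfkfb and Pdk, or of an Slc2a or Slc16a1/3 transporter. This gave 74 of the 34289 genes of the count tables, spread over 15 steps. The letters of the rule also took 7 genes with other products, namely the Cdk1 inhibitory kinase gene pkmyt1, slc2a4rg, pgam5, slc16a10, slc16a12a, slc16a12b and slc16a13. They are counted among the 74 and left out of the sums by step, which rest on 67 genes. The other slc2a genes were kept as the glucose transporter step by name, whatever substrate each carries.

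Glycolysis is the cytosolic pathway that splits glucose into pyruvate and yields ATP, and lactate dehydrogenase converts the pyruvate to lactate. Glucose enters cells through Slc2a (Glut) transporters, and lactate leaves through monocarboxylate transporters of the Slc16a family. Osteoblasts, the cells that form bone, are known to take up much glucose and to release lactate while they make matrix. Many of these genes are present as pairs of paralogues in the zebrafish, a legacy of the genome duplication in teleost fish.

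RNA was sequenced from osteoblasts of regenerating scales of zebrafish that all carried the reporters osx:H2A-mCherry and osx:Venus-hGeminin, both driven by osterix (sp7) sequence, so the sort took cells that held the product of that driver. Scales were collected 4 days after plucking, with about 3 to 5 fish pooled per sample and no fish age given in the labels, and live mCherry-positive cells were sorted into a Venus-hGeminin-positive and a Venus-hGeminin-negative gate, with 3 libraries each. The reporter protein is broken down in G1 and builds up in S, G2 and M phase. The study set out to compare osteoblasts with high and low Erk activity, but the sample labels call the Geminin-positive cells high in Erk activity and the design text gives an inverse relation, so the groups are named by gate.

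Total counts were between 15854710 and 34472612 per library. The geminin gene gmnn, which checks the sort, had 1516, 1633 and 1518 CPM in the Geminin-positive libraries and 426, 365 and 401 CPM in the Geminin-negative libraries (CPM, counts scaled to library size with the TMM correction). Of the 10 osteoblast markers, 9 were tested, and bglap was near 0 counts. Their log2 fold changes were 2.13 for col1a1a, the 1 gene that edgeR called, 2.15 for col1a2, 1.83 for sparc and 0.84 for sp7. They were 0.02 for phex, but -0.64 for col10a1a, -0.71 for spp1, -0.66 for runx2a and -0.22 for runx2b. Markers of some other cells moved with the gate. The 15 leukocyte markers found summed to between 76.8 and 220.6 CPM in the Geminin-positive and between 2599 and 3760 CPM in the Geminin-negative libraries. All 13 leukocyte markers that were tested had groups that did not overlap, each lower in the Geminin-positive libraries, against 10.3% of all genes. The edgeR test called 6 of them lower, against 0.482% of all genes, while mpeg1.1 had 0 counts. Some, such as coro1a, csf1ra, ptprc and spi1b, were tested through their counts in the Geminin-negative libraries alone. These could differ in that direction only, and coro1a was among the 6 called. The 8 osteoclast markers found summed to between 319.6 and 467 CPM in the Geminin-positive and between 833 and 1101 CPM in the Geminin-negative libraries. Of the 6 osteoclast markers tested, edgeR called 2, both lower, against the same 0.482% of all genes. The 10 nerve and Schwann cell markers summed to between 100.5 and 133 CPM in the Geminin-positive and between 411 and 447 CPM in the Geminin-negative libraries, with sox10, mbpa, plp1b and elavl3 at 0 counts. Nearly all of that sum came from pmp22a, with means of 73.1 and 213.8 CPM, and pmp22b, with means of 32.8 and 199.9 CPM, while mpz, plp1a and elavl4 were near 0. The 7 dermal fibroblast markers summed to between 3435 and 7929 CPM against between 1637 and 2182 CPM. That sum was carried by lum and pdgfrl, whereas dcn, prrx1a, thy1 and twist1a had lower means in the Geminin-positive libraries, and the median log2 fold change of the list was -1.09. The 9 keratinocyte markers summed to between 685 and 886 CPM against between 746.5 and 3824 CPM. The 9 muscle markers summed to at most 3.03 CPM against at most 24.7 CPM, with acta1b, ckmb and pvalb1 at 0 counts. The keratinocyte and muscle sums overlapped between the gates, as did those of the erythrocyte, endothelium and pigment cell markers, the last 3 at most 97.5 CPM in any library. In sorted bulk samples, fewer cells of a type and less RNA per cell cannot be told apart. The part of these cells in the differences below was not tested.

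In several steps, such as aldolase, GAPDH and lactate dehydrogenase, 1 paralogue held at least 81.0% of the summed level per kb in each library. In others the share of the leading gene varied, as with hk1 (49.3% to 87.85%) and eno3 (49.8% to 83.7%). No gene of the pathway passed the edgeR test between the gates. Of the 74 genes, 43 had enough counts to be tested. None passed at an adjusted p of 0.05 by edgeR's quasi-likelihood test, against a background of 0.607% of all 12855 genes tested, 0.124% higher and 0.482% lower. The genes slc2a6, eno1a and pkma, 3 in all, had an unadjusted p under 0.05, each with lower levels in the Geminin-positive libraries, against a background of 9.4%, made up of 3.64% higher and 5.76% lower. Of these 3, slc2a6 was tested through its counts in the Geminin-negative libraries alone. It could come out lower only, here and in the calls and overlaps below. The count at an unadjusted p under 0.05 was 8 on library size alone, against 11.8% of all genes, all lower. It was 6 with DESeq2, against 12%, again all lower. With 1 library left out that count was between 2 and 6, against between 7.14% and 11% of all genes. DESeq2 called 2 members lower, slc2a6 and eno1a, against a background of 3.38% called lower and 1.51% called higher, and limma-voom called 0, against 0.545% lower and 0.327% higher. With no filter on low counts edgeR called the same 2, against 1.85% lower and 0.721% higher. The log2 fold change was positive in 18 of the 43 genes, against 49.6% of all genes, and negative in 25. Its median was -0.07, with slc2a6 at its bound too, against -0.01 over all genes. Without TMM, on library size alone, the median of all genes was -0.47, which left 7 of the 43 positive, so the signs below hold for TMM scaling. In 6 of the 43 the groups did not overlap, among them slc2a12, slc2a6, eno1a, pkma and slc16a10, each lower in the Geminin-positive libraries, against a background of 10.3% lower and 8.09% higher.

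**Figure D1:**
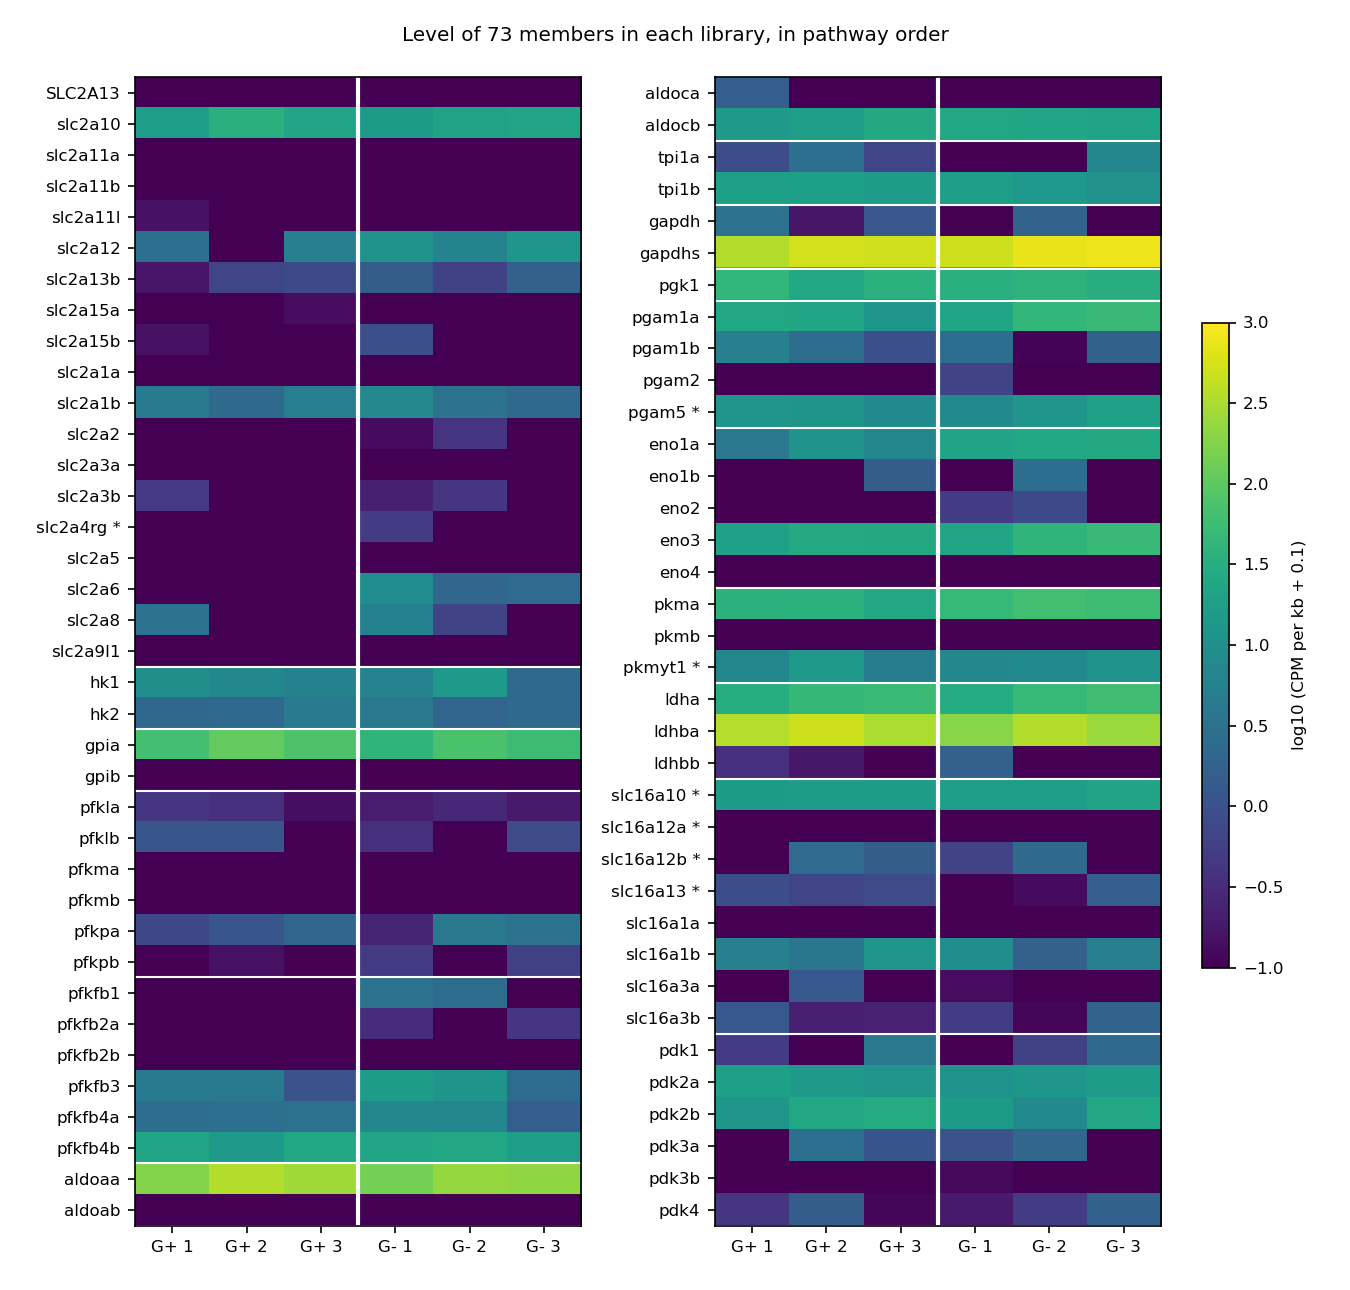
Level of 73 genes in each library as log10 of CPM per kilobase of gene length plus 0.1, with the steps in pathway order separated by white lines. Geminin-positive libraries (G+) are left of Geminin-negative libraries (G-), and an asterisk marks a gene taken by the letters of the rule only. The brightest rows are gapdhs, ldhba and aldoaa in both groups, and several steps hold a single bright row.

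Compared per length of gene, gapdhs was the most abundant, with a mean of 457 CPM per kb in the Geminin-positive and 678 CPM per kb in the Geminin-negative libraries. It was followed by ldhba with 390.5 against 264 CPM per kb, and by aldoaa with 264 against 199 CPM per kb. The isomerase gene gpia had 83.6 against 55.8 CPM per kb. At the other end, all 6 phosphofructokinase genes together had 2.04, 2.47 and 1.92 CPM per kb in the Geminin-positive libraries and 0.900, 4.13 and 4.35 CPM per kb in the Geminin-negative libraries. Phosphofructokinase, the enzyme of the committed step, thus had the lowest summed level of the enzyme steps from hexokinase to lactate dehydrogenase in each library. There were 16 genes with 0 counts in all 6 libraries, which allows up to 0.0242 CPM (3 counts over the 6 libraries, counting error only). They were SLC2A13, slc2a11a, slc2a11b, slc2a1a, slc2a3a, slc2a5, slc2a9l1, gpib, pfkma, pfkmb, pfkfb2b, aldoab, eno4, pkmb, slc16a12a and slc16a1a. Another 15 genes had counts but too few to be tested.

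Counts were uneven between libraries of a group. Of 41 members with at least 50 counts in a Geminin-positive library, 8 had 0 counts in another library of that gate, or 19.5%, against 23.2% of all genes. In the Geminin-negative libraries this held for 14 of 48 members, or 29.2%, against 29.8% of all genes. The triosephosphate isomerase copy tpi1a is an example, with 1.02, 3.53 and 0.752 CPM in the Geminin-positive libraries and 0, 0 and 9.49 CPM in the Geminin-negative libraries.

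Among the glucose transporters, slc2a10 (Glut10) was the most abundant per length of gene and slc2a6 differed most. The slc2a10 row overlaps those of CSNK2A3 and another gene, whose part in its counts was not tested. For slc2a6 (ENSDARG00000058731, danRer10 chromosome 8, 12816671 to 12829614), which encodes Glut6, the files held 0 counts in each of the 3 Geminin-positive libraries, and 36.6, 8.29 and 10.1 CPM in the Geminin-negative libraries. Its level was at least 241-fold lower in the Geminin-positive libraries, taking a floor of 3 counts over that group, for counting error only. Geminin-negative replicate 1 held 716 of the 1243 counts, and without it the bound was 136.5-fold. The bound was 158-fold without Geminin-positive replicate 1 and 156.9-fold without Geminin-positive replicate 3. The edgeR test did not call it (adjusted p = 0.06063), while DESeq2 did (adjusted p = 2.938e-08). It was tested because of its counts in the Geminin-negative libraries alone, so it could differ in that direction only. In mammals Glut6 is found in leukocytes and lysosomes, and the leukocyte markers moved with the gate as given above, whose part in this result was not tested.

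The other transporters gave no call. For slc2a10 the values were 48.7, 97.1 and 64.8 CPM in the Geminin-positive libraries and 43.0, 58.1 and 62.6 CPM in the Geminin-negative libraries, so the groups overlapped. For slc2a12 (Glut12) they were 7.24, 0 and 13.8 CPM against 28.7, 16.0 and 34.4 CPM, which did not overlap, yet the edgeR adjusted p was 0.9132. The Glut1 copy slc2a1b had 8.07, 4.18 and 9.21 CPM in the Geminin-positive libraries and 13.7, 5.44 and 4.23 CPM in the Geminin-negative libraries, and its copy slc2a1a had 0 counts throughout. Of the 18 transporter genes 7 were tested. The log2 fold change was positive in 1 of these, against 49.6% of all genes, and negative in 6. In slc2a1b, slc2a3b, slc2a8 and slc2a13b the SE exceeded the size of the log2 fold change, and slc2a6 could only be negative. slc2a10 made up 73.7% ± 16.3 of the summed transporter level per kb in the Geminin-positive and 48.3% ± 16.3 in the Geminin-negative libraries (SD, n = 3 each), and these shares overlapped.

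The steps from hexokinase to triosephosphate isomerase, which use ATP and split the sugar, had levels that overlapped between the gates in their main genes. The hexokinase genes hk1 and hk2 phosphorylate glucose on entry. For hk1 the values were 38.0, 29.1 and 22.8 CPM in the Geminin-positive and 23.5, 56.6 and 9.27 CPM in the Geminin-negative libraries (log2 fold change 0.01 ± 0.62 SE), and hk2 had 14.8, 15.8 and 31.8 CPM against 27.6, 13.8 and 16.8 CPM. The spread was wide in both genes, and hk1 took 71.4% ± 13.8 of the hexokinase level per kb against 65.7% ± 19.9. The isomerase gene gpia (ENSDARG00000012987, chromosome 25, 35408675 to 35434057) had 153, 267 and 183 CPM in the Geminin-positive and 97.9, 171 and 134 CPM in the Geminin-negative libraries (log2 fold change 0.58 ± 0.31 SE, adjusted p = 0.7219 by edgeR). Only the lowest Geminin-positive value lay below the highest Geminin-negative value, and the copy gpib had 0 counts. Scaled by library size alone, the log2 fold change of gpia was 0.09.

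Among the phosphofructokinase genes, the platelet-type copy pfkpa had 2.67, 4.54 and 7.96 CPM in the Geminin-positive and 0.665, 16.6 and 12.9 CPM in the Geminin-negative libraries. Its share of the step ranged from 17.5% to 97.8% of the summed level per kb, so the leading copy varied from library to library. The liver-type copies pfkla and pfklb averaged 1.51 and 4.14 CPM in the Geminin-positive and 0.950 and 1.89 CPM in the Geminin-negative libraries, and the muscle-type copies pfkma and pfkmb had 0 counts.

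The bifunctional Pfkfb enzymes set the level of fructose 2,6-bisphosphate, which activates phosphofructokinase. Here pfkfb4b was the main copy, with 68.5, 44.4 and 72.8 CPM in the Geminin-positive and 69.4, 72.4 and 52.0 CPM in the Geminin-negative libraries (log2 fold change -0.06 ± 0.32 SE). For pfkfb3, known in mammals as the isoform of proliferating cells with high kinase activity, the values were 18.2, 16.8 and 4.07 CPM in the Geminin-positive and 67.9, 49.5 and 10.4 CPM in the Geminin-negative libraries. Both replicates 3 were the lowest of their gate, and the groups overlapped (log2 fold change -1.71 ± 0.78 SE, adjusted p = 0.5635 by edgeR). For pfkfb1, which was not tested, the files held 0 counts in the Geminin-positive libraries and 5.68, 4.64 and 0 CPM in the Geminin-negative libraries. As Geminin-negative replicate 3 also had 0 counts, no minimum fold between the gates follows. The genes pfkfb3 and pfkfb1 were singled out after their values were seen.

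Aldolase, which splits fructose 1,6-bisphosphate, was mostly aldoaa (ENSDARG00000011665, chromosome 3, 39425141 to 39435194). Its level was 336, 636 and 512 CPM in the Geminin-positive and 270.4, 441 and 405 CPM in the Geminin-negative libraries (log2 fold change 0.41 ± 0.31 SE, adjusted p = 0.9459 by edgeR). Its share of the aldolase level per kb was 90.6%, 94.4% and 90.3% against 82.0%, 88.4% and 88.6%, which did not overlap. Scaled by library size alone, the log2 fold change of aldoaa was -0.09 and that of tpi1b was -0.12. The level of the copy aldocb was 31.8, 37.0 and 56.7 CPM against 53.5, 48.9 and 45.3 CPM and overlapped. The isomerase gene tpi1b, which interconverts the triose phosphates, had 48.2, 45.9 and 41.3 CPM in the Geminin-positive and 44.5, 34.3 and 27.2 CPM in the Geminin-negative libraries (log2 fold change 0.35 ± 0.34 SE). Its row overlaps those of lpcat3 and of U7 genes.

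**Figure D2:**
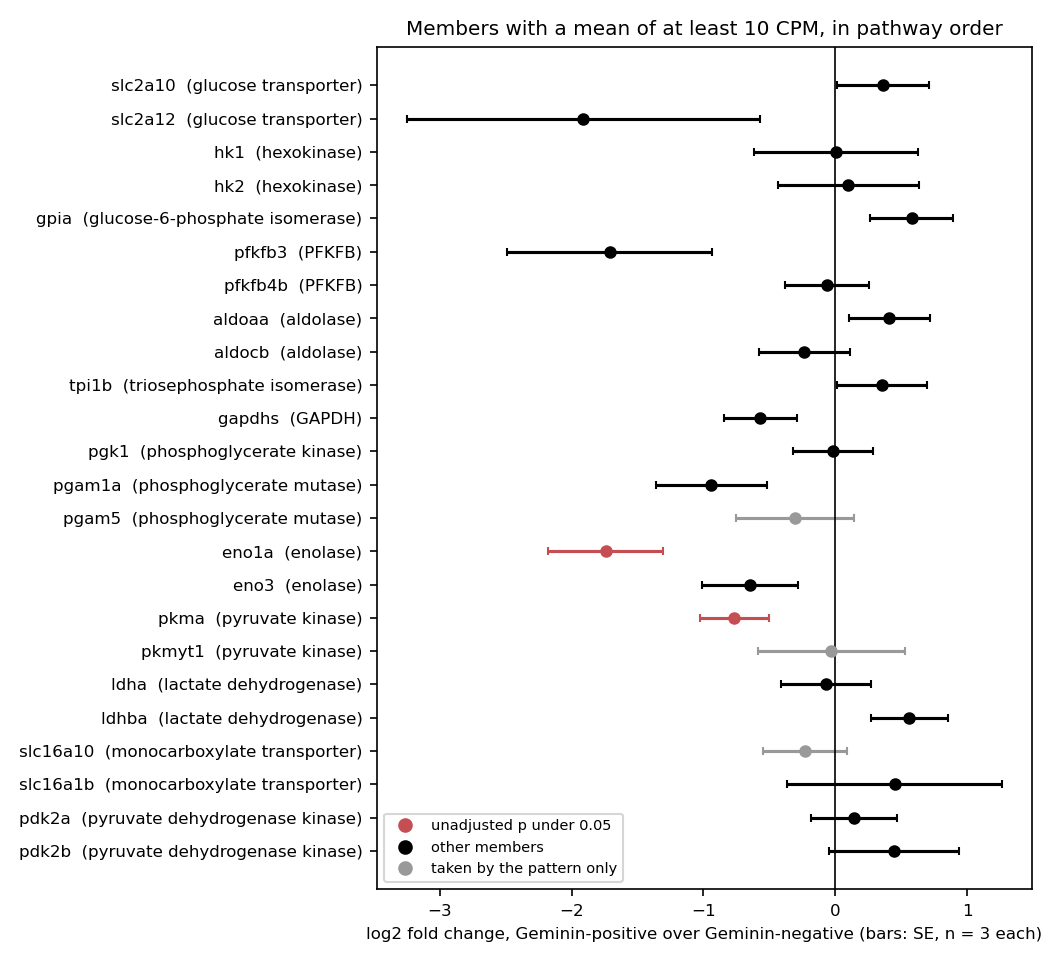
Log2 fold change of Geminin-positive over Geminin-negative libraries (points) with SE (bars, n = 3 each) for 24 genes whose mean reached 10 CPM, in pathway order from top to bottom. The enolase gene eno1a at -1.74 and the pyruvate kinase gene pkma at -0.77 are the red points, and gpia, aldoaa and ldhba lie right of 0. Scaled by library size alone, gpia falls to 0.09, aldoaa to -0.09 and ldhba to 0.09.

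The steps from glyceraldehyde phosphate to pyruvate, which regain ATP, had lower mean levels in the Geminin-positive libraries in gapdhs, pgam1a, eno1a, eno3 and pkma, of which eno1a and pkma did not overlap between the gates and none passed the edgeR test. The gapdhs gene (ENSDARG00000039914, chromosome 16, 45077747 to 45103166) encodes a glyceraldehyde-3-phosphate dehydrogenase whose mammalian counterpart is sperm-specific. It had 556, 858 and 825 CPM in the Geminin-positive and 812, 1221 and 1284 CPM in the Geminin-negative libraries (log2 fold change -0.57 ± 0.27 SE, adjusted p = 0.6206 by edgeR). In both gates replicate 1 was the lowest, and the ranges met only where the lowest Geminin-negative library fell among the Geminin-positive ones. The copy gapdh had 6.16, 0.144 and 2.26 CPM in the Geminin-positive and 0, 3.54 and 0 CPM in the Geminin-negative libraries, so gapdhs made up at least 99.1% of the step in each library. The kinase gene pgk1, the first ATP-yielding step, had 101, 55.3 and 82.0 CPM against 80.4, 90.2 and 70.9 CPM (log2 fold change -0.02 ± 0.31 SE).

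The phosphoglycerate mutase gene pgam1a had 42.7, 41.2 and 22.4 CPM in the Geminin-positive and 39.1, 77.8 and 87.1 CPM in the Geminin-negative libraries (log2 fold change -0.94 ± 0.42 SE, adjusted p = 0.5545 by edgeR). Geminin-negative replicate 1 lay among the Geminin-positive values and the other Geminin-negative libraries above them. The copy pgam1b averaged 7.66 CPM in the Geminin-positive and 3.75 CPM in the Geminin-negative libraries, and pgam2, in mammals the muscle form, had 11 counts in Geminin-negative replicate 1 and none elsewhere.

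Enolase makes phosphoenolpyruvate. The eno1a gene (ENSDARG00000022456, chromosome 23, 22729926 to 22751447) had 10.9, 31.9 and 19.4 CPM in the Geminin-positive and 62.7, 68.2 and 77.2 CPM in the Geminin-negative libraries. The lowest Geminin-negative library was thus above the highest Geminin-positive one, with means of 20.7 ± 10.5 and 69.4 ± 7.30 CPM (SD, n = 3 each). The log2 fold change was -1.74 with an SE of 0.44, which edgeR did not call (adjusted p = 0.1539) and DESeq2 did (adjusted p = 0.01711). The other main enolase gene, eno3, in mammals the muscle form, had 45.4, 64.0 and 61.4 CPM in the Geminin-positive and 51.2, 96.8 and 119.6 CPM in the Geminin-negative libraries (log2 fold change -0.65 ± 0.37 SE, adjusted p = 0.7671 by edgeR), and the groups overlapped. Its row overlaps those of dlg4b and eif4e2rs1. The muscle markers summed to at most 3.03 CPM in the Geminin-positive and at most 24.7 CPM in the Geminin-negative libraries. The part of muscle cells in the level of eno3 was not tested.

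Per length of gene, eno1a took 16.3%, 28.7% and 19.5% of the enolase level in the Geminin-positive libraries and 49.3%, 34.5% and 34.3% in the Geminin-negative libraries. The share of eno3 was the larger in all 6 libraries, at 83.7%, 71.3% and 76.4% against 49.8%, 60.6% and 65.7%. Both shares were without overlap between the gates. These 2 genes made up nearly all of the step, so the shares mirror each other and are 1 result. The sum below also includes eno1a. The summed level of the 5 enolase genes was 56.4, 95.8 and 83.5 CPM in the Geminin-positive and 115, 172 and 197 CPM in the Geminin-negative libraries, also without overlap.

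Pyruvate kinase, the last step, was pkma among the Pkm copies (ENSDARG00000099730, chromosome 18, 1014890 to 1059346), and pkmb had 0 counts. Its level was 133, 128 and 90.0 CPM in the Geminin-positive and 170.1, 225 and 202 CPM in the Geminin-negative libraries. The groups did not overlap, and the log2 fold change was -0.77 with an SE of 0.26 (edgeR adjusted p = 0.3296).

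**Figure D3:**
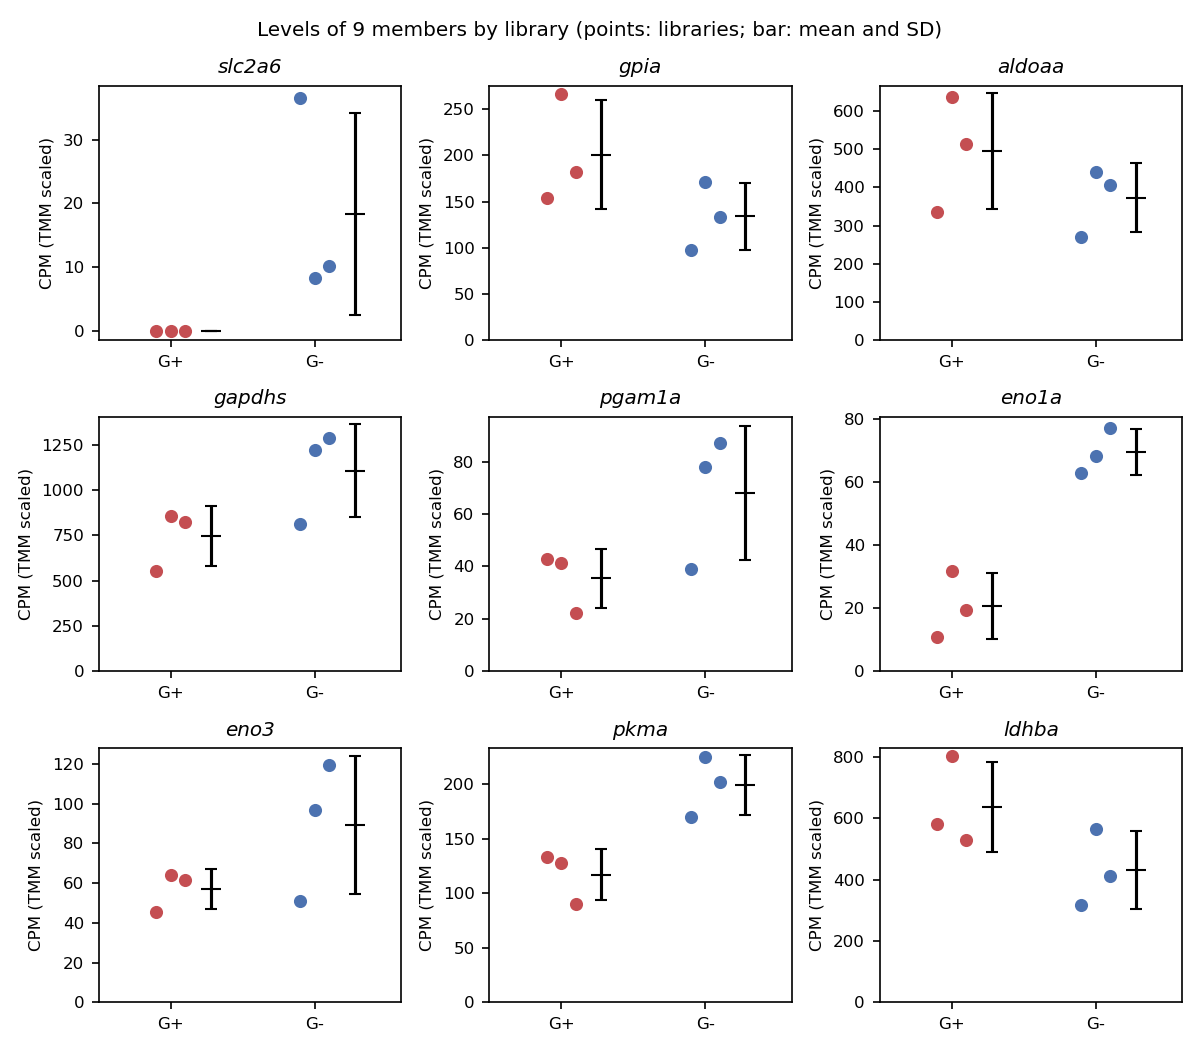
CPM of 9 genes by library, with points for the 3 libraries of each gate and a bar for the mean and SD. G+ is Geminin-positive and G- is Geminin-negative. The groups of slc2a6, eno1a and pkma do not overlap, while those of gpia, aldoaa, gapdhs, pgam1a, eno3 and ldhba do.

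The main lactate dehydrogenase gene had the higher mean in the Geminin-positive libraries. This gene was ldhba (ENSDARG00000019644, chromosome 4, 16840128 to 16847030), of the heart-type B subunit, with 581, 804 and 528 CPM in the Geminin-positive and 318, 566 and 410.4 CPM in the Geminin-negative libraries (log2 fold change 0.56 ± 0.29 SE, adjusted p = 0.6745 by edgeR). One Geminin-negative library lay within the Geminin-positive range. Scaled by library size alone, the log2 fold change of ldhba was 0.09. The muscle-type gene ldha, whose row overlaps those of tsg101a and ccl35.2, had 68.7, 100.3 and 117.5 CPM against 65.1, 105.4 and 130.2 CPM (log2 fold change -0.07 ± 0.34 SE). Per kb, ldhba exceeded ldha 11.5-fold, 10.9-fold and 6.09-fold in the Geminin-positive libraries and 6.62-fold, 7.29-fold and 4.27-fold in the Geminin-negative libraries.

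Among the lactate transporters, slc16a1b (Mct1) had 11.8, 7.93 and 27.1 CPM in the Geminin-positive and 19.6, 3.46 and 11.2 CPM in the Geminin-negative libraries, and slc16a3b (Mct4) had 5.46, 0.577 and 0.627 CPM against 1.84, 0.0549 and 8.32 CPM. Both overlapped and varied widely within a gate. The amino acid transporter gene slc16a10, which the rule took by its letters, had 36.3, 38.5 and 38.3 CPM in the Geminin-positive and 39.5, 42.0 and 51.1 CPM in the Geminin-negative libraries. Its groups did not overlap, with a log2 fold change of -0.23 and an SE of 0.32. The kinase gene pkmyt1, a cell cycle gene and no pyruvate kinase, had 15.8, 33.7 and 10.8 CPM against 16.6, 18.4 and 26.6 CPM and overlapped.

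Pyruvate dehydrogenase kinases hold pyruvate back from the mitochondrial pyruvate dehydrogenase complex. The genes pdk2a and pdk2b were the main ones. For pdk2b the values were 30.4, 57.5 and 69.2 CPM in the Geminin-positive and 35.9, 19.5 and 60.1 CPM in the Geminin-negative libraries (log2 fold change 0.45 ± 0.49 SE), and pdk2a had 69.4, 51.5 and 45.4 CPM against 40.7, 49.3 and 60.4 CPM. Both overlapped, and pdk1, pdk3a and pdk4 averaged at most 3.47 CPM in either gate. The pdk2b row overlaps that of si:ch211-264f5.2.

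The relative levels of genes within a library do not depend on how libraries are scaled. Per kb, the ratio of aldoaa to gapdhs was 0.527, 0.646 and 0.541 in the Geminin-positive libraries and 0.290, 0.315 and 0.275 in the Geminin-negative libraries. The ratio of pkma to ldhba was 0.1035, 0.0719 and 0.0770 in the Geminin-positive libraries and 0.242, 0.179 and 0.222 in the Geminin-negative libraries. The ratio of eno1a to eno3 was 0.194, 0.4025 and 0.2555 against 0.989, 0.569 and 0.521, which restates the enolase shares given above. None of these 3 ratios overlapped between the gates, but they were picked after their values were seen, so they are given as a description without a test. In the first 2, the means of the genes moved in opposite directions under TMM scaling, which widens the gap. Other ratios were computed too. That of ldhba to ldha overlapped, at 6.09 to 11.5 against 4.27 to 7.29. That of aldoaa to aldocb barely did not, at 10.62 to 20.21 against 5.935 to 10.6. The ratio of gapdhs to gapdh was undefined where gapdh had 0 counts.

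**Figure D4:**
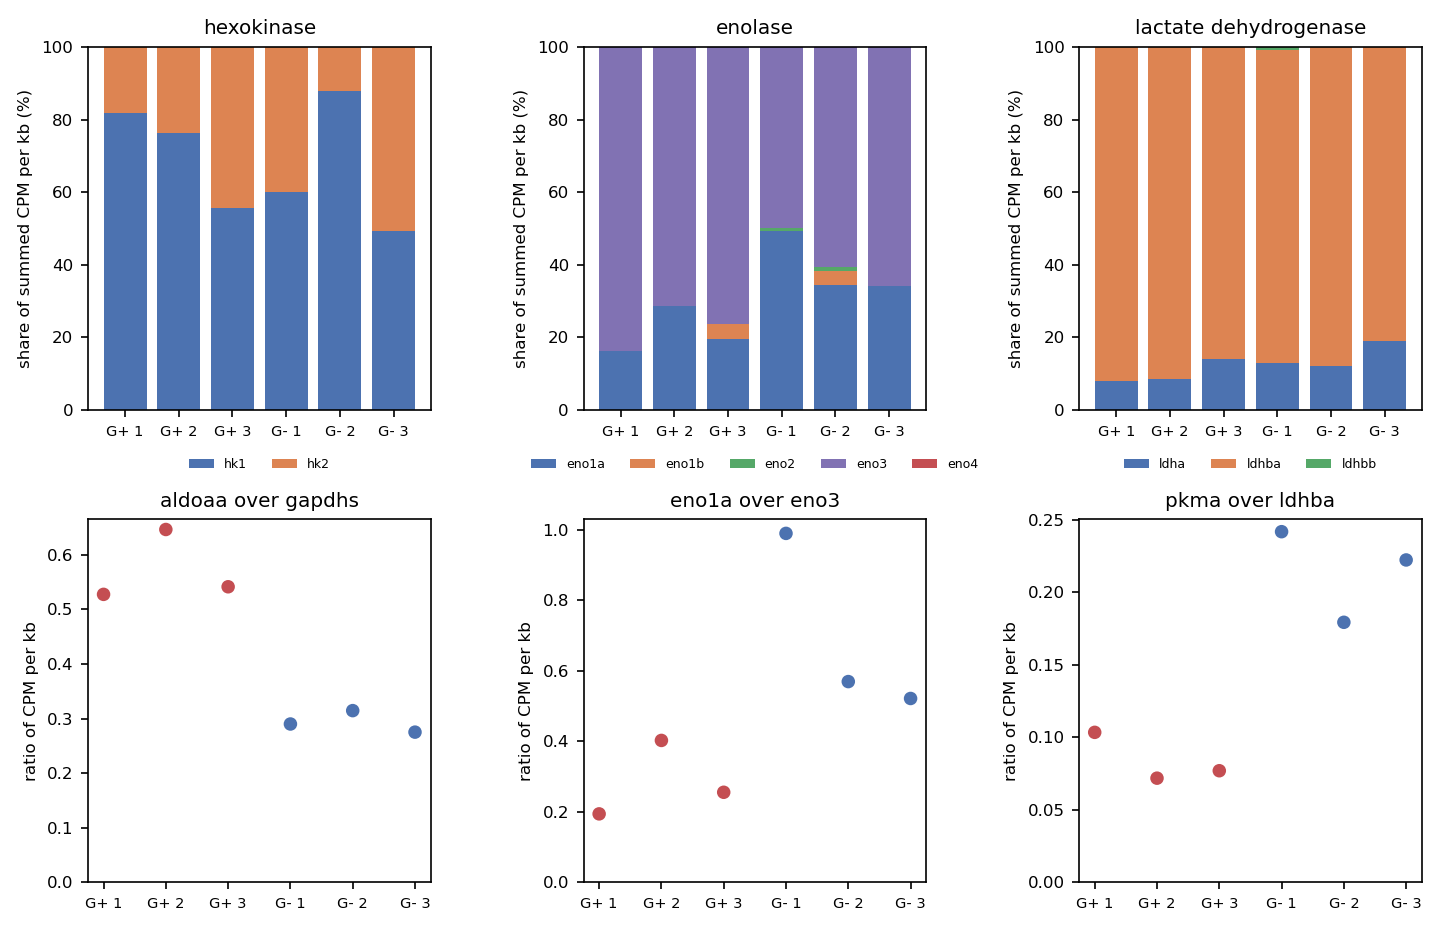
Top row, share of each paralogue in the summed CPM per kb of hexokinase, enolase and lactate dehydrogenase in each library; bottom row, ratio of CPM per kb of 2 genes in each library. G+ is Geminin-positive and G- is Geminin-negative. The eno1a share lies between 16.3% and 28.7% in Geminin-positive libraries and between 34.3% and 49.3% in Geminin-negative libraries.

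Related pathways also gave no call by edgeR over all genes in any of 7 lists. The pyruvate dehydrogenase complex list, which includes the mitochondrial pyruvate carrier, had a positive log2 fold change in 7 of 8 tested genes, with a median of 0.43 against -0.01 over all genes, and 2 at an unadjusted p under 0.05, both higher, or 25%, against 3.64% higher and 9.4% in all over all genes. The carrier gene mpc1 had 80.0, 96.0 and 96.8 CPM in the Geminin-positive and 44.6, 44.9 and 57.4 CPM in the Geminin-negative libraries (log2 fold change 0.89 ± 0.28 SE, adjusted p = 0.269 by edgeR). The complex subunit gene pdhx had 28.6, 31.4 and 36.7 CPM against 13.3, 16.9 and 10.6 CPM (log2 fold change 1.24 ± 0.43 SE, adjusted p = 0.331 by edgeR). In both genes the groups did not overlap. DESeq2 called 1 gene of the pentose phosphate list, pgd, and 2 of the hypoxia list, ndrg1a and vegfab, all lower, and none of the other 5 lists, while limma-voom called 0 in the 7 lists. Both ndrg1a and vegfab were tested through their counts in the Geminin-negative libraries alone, so they could be called in that direction only. In the tricarboxylic acid cycle list 13 of 18 tested genes were positive, with a median of 0.26 and 0 at an unadjusted p under 0.05.

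In the pentose phosphate list, the branch that yields NADPH and ribose phosphate, 4 of 6 tested genes were positive. The phosphogluconate dehydrogenase gene pgd stood on the other side, with 28.8, 27.3 and 33.8 CPM in the Geminin-positive and 70.1, 73.4 and 73.7 CPM in the Geminin-negative libraries. These values did not overlap and varied little within a gate (log2 fold change -1.27 ± 0.30 SE, adjusted p = 0.124 by edgeR). The glycogen list had 7 of 11 positive with a median of 0.31, and in the gluconeogenesis list all 4 tested genes were positive. Its member pck2, which makes phosphoenolpyruvate in mitochondria, had 47.9, 58.3 and 95.1 CPM in the Geminin-positive and 34.2, 35.7 and 13.9 CPM in the Geminin-negative libraries (log2 fold change 1.26 ± 0.46 SE, adjusted p = 0.369 by edgeR).

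In the hypoxia pathway list, whose factor Hif1 drives glycolysis genes in many cells, 10 of 19 tested genes were positive, with a median of 0.21. At an unadjusted p under 0.05 stood 5 genes, adma, bnip3lb, ndrg1a, vegfaa and vegfab, or 26.3% of the list. All 5 had lower mean levels in the Geminin-positive libraries, against 5.76% lower and 9.4% in all over all genes. Of these, ndrg1a and vegfab could differ in that direction only, as given above. The groups of adma overlapped, with 13.3, 9.59 and 4.89 CPM in the Geminin-positive and 185, 21.7 and 5.58 CPM in the Geminin-negative libraries. The stress-response gene ndrg1a had 0.699, 0 and 0 CPM in the Geminin-positive and 35.5, 25.1 and 27.5 CPM in the Geminin-negative libraries (edgeR adjusted p = 0.101). The mitophagy receptor gene bnip3lb had 19.7, 18.5 and 28.7 CPM against 48.1, 48.1 and 41.4 CPM (log2 fold change -1.04 ± 0.36 SE, adjusted p = 0.339 by edgeR). Both were without overlap between the gates. Of the glycolysis regulators 6 of 12 were positive, with a median of -0.04 and 0 at an unadjusted p under 0.05, and gck, gckr, hkdc1 and prkaa2 had 0 counts.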

How the data were processed

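The authors deposited raw read counts per gene for 6 libraries. The submitters' processing notes list featureCounts 1.6.1, TopHat2 2.1.1, Trim Galore 0.4.1 and build danRer10. No source used here gives the strand setting, the annotation release or the handling of reads that match several copies, so reads of near-identical paralogues or of overlapping genes may be shared. The rows of 18 of the 74 genes overlap another row. The gene length in base pairs is the one the counting tool wrote.

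Symbols came from a table of Ensembl IDs and from RefSeq (GRCz12tu, names only). Of the 74 genes, 38 matched a unique symbol, 35 a base name on the same chromosome with a shared neighbour within 10 genes, and SLC2A13 the ID table alone. The ID table calls pgk1 PGK2; it was matched by chromosome and neighbours. The genes and lists were chosen with earlier results of these data known.

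Counts were fitted with edgeR 4.0.16 in R 4.3.3 (filterByExpr, TMM, robust quasi-likelihood, Benjamini-Hochberg over 12855 genes, threshold 0.05). The fit was run on simulated data too, with larger changes than most of these genes had. That check cannot show whether smaller changes would be called. SE is the absolute log2 fold change over the root of F. DESeq2 1.42.0 and limma-voom (limma 3.58.1) were alternatives. Values in each library are given for genes at an unadjusted p under 0.05, the top gene of each step per kb, and non-overlapping genes whose mean reached 10 CPM, 20 in all, and for others as text requires. From each related list the 2 genes of smallest p qualified. No pair of libraries agreed within sampling noise (lowest chi-square per degree of freedom 94.9). The labels do not say whether replicates came from separate fish, so p-values measure the spread between these samples, which may be technical. Floors cover counting error only. The values of 1 gene are not reported here. The bounds with a library left out were added after the data were seen.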

Additional observations from a re-analysis of the deposited data

How the results depend on the processing

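The count of 0 called members held in 12 of 15 alternatives and was 2 with library size only, with no filter and with DESeq2, the 2 being slc2a6 and eno1a each time. The count over all genes was 78, against 185 with library size only, 557 with no filter, 628 with DESeq2, 134 with the replicate block and 50 without leukocyte and osteoclast markers, and ranged from 22 (without Geminin-negative replicate 2) to 96 (without Geminin-positive replicate 1) when 1 library was left out, at most 40 in the other 4 cases; the cause was not tested. Library size alone moved the median of all genes to -0.47, against -0.01, and there slc2a10 (-0.15), hk1 (-0.38), aldoaa (-0.0875), tpi1b (-0.12), slc16a1b (-0.0448) and pdk2b (-0.093) turned negative. With no filter hk1 was -1e-04. Leaving out 1 library gave hk1 -0.45 to 0.82, pfkfb4b -0.24 to 0.13, pgk1 -0.22 to 0.19 and slc16a1b -0.20 to 1.11. The other 12 named genes kept their direction in all 15, though gpia and ldhba fell to 0.091 and 0.0885 on library size alone. The adjusted p over the alternatives ran from 0.01711 to 0.4429 for eno1a, from 2.938e-08 to 0.2863 for slc2a6 and from 0.07511 to 0.7974 for pkma. In the labels, same-numbered libraries of the gates share only a number, and whether they are pairs is not given. Their deviations from the mean of the gate correlated at 0.206, 0.0804 and 0.0593, each Geminin-positive library best with its own number. With replicate as a block, 0 members were called, and 8 had an unadjusted p under 0.05, against 10.4% of all genes. Of these, 5 were lower and 3 higher (gpia, aldoaa and ldhba). Counts of 0 in a library limit what the depth can show for low genes.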

Other observations

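Some of these genes lie side by side. On danRer10 chromosome 19, eno2 (5156432 to 5174246) and tpi1a (5177732 to 5186827) are 3.485 kb apart on opposite strands. On chromosome 23, slc2a5 (22689512 to 22706585) ends 23.3 kb before eno1a starts on the same strand, and it had 0 counts in all 6 libraries while eno1a had counts in all of them. On chromosome 18, the row of gpib (512830 to 1011132) ends 3.76 kb before that of pkma, on the same strand, and gpib likewise had 0 counts. The gpib row has a gene length of 2059 bp over that span and overlaps those of wtip, nedd4a, cox5ab, parp6a and others. Whether it measures the gene well was not tested. The enolase copy eno2 had 0 counts in the Geminin-positive libraries and 21, 70 and 0 counts in the Geminin-negative libraries.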
